A study of Mus musculus with 16 samples.

Results

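The transcripts described here encode the 5 subunits of the transcription factor NF-kB (*Nfkb1*, *Nfkb2*, *Rel*, *Rela* and *Relb*) and 5 proteins that restrain or retune it (*Nfkbia*, *Nfkbie*, *Nfkbiz*, *Bcl3* and *Tnfaip3*). They were taken from a list of names and found by symbol among the 55487 gene IDs of the count table, where each of the 10 has 1 row. RNA was sequenced in bulk from skin cells of mice (*Mus musculus*), separated by flow sorting into CD45+ cells (the immune fraction, CD45 being the surface protein of leukocytes encoded by *Ptprc*) and CD45- cells (the stromal fraction). Stretched skin had been put under hypobaric pressure, a suction, 6 h earlier, and control skin came from the same body area without stretching. Fraction and treatment give 4 groups of 4 libraries, control and stretched in each fraction. Libraries carry the numbers of their titles, which are 1 to 4 for stromal control, 5 to 8 for stromal stretched, 3 to 6 for immune control, and 1, 2, 7 and 8 for immune stretched. Strain, age, sex and the number of animals were not given in the sources used here, nor whether libraries came from separate animals, so each p-value measures only the spread between these libraries, which may be technical.

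NF-kB subunits pair into dimers that bind kappa B sites in DNA. In resting cells the inhibitor proteins of the IkB family hold dimers in the cytoplasm, and the IKK kinase complex releases them after cytokine, microbial or stress signals by marking the inhibitors for destruction. Several inhibitors are themselves NF-kB target genes, which closes a negative feedback loop. In skin the pathway is known for its part in inflammation, keratinocyte survival and the recruitment of leukocytes.

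Library totals did not overlap between treatments within a fraction. They spanned 13563586 to 20467010 counts in stromal control, 21955174 to 26944965 in stromal stretched, 2645421 to 6662268 in immune control and 7018743 to 20095580 in immune stretched. The sort gene *Ptprc* lay between 0.0644 and 3.39 CPM (counts scaled to a common library size with TMM factors) in the stromal libraries and between 219.8 and 703 CPM in the immune libraries. The summed level of 7 leukocyte markers was 8.83 to 28.4 CPM in stromal and 2794 to 19156 CPM in immune libraries. Fibroblast markers summed to 40984 to 62099 CPM in stromal and 1496 to 10107 CPM in immune libraries, so the stromal fraction was led by fibroblast transcripts. Keratinocyte markers stood at 156 to 1456 CPM in stromal and 24.7 to 2123 CPM in immune libraries. Blood endothelial markers stood at 54.15 to 203 CPM in stromal and 68.6 to 498 CPM in immune libraries. Immune control 4, stromal stretched 7 and stromal stretched 8 stood apart, with 5942, 408 and 200.3 CPM on 1738 olfactory and vomeronasal receptor genes against at most 68.7 CPM in the others. Immune stretched 2 held 48352 CPM of neutrophil markers against at most 9868 CPM in the other immune libraries.

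Promoters are shown first, since several of these genes are known NF-kB targets. Windows of 250 bases before to 50 bases after the transcription start were taken from RefSeq on GRCm38.p6, which held 7 of the 10 genes; *Nfkb1*, *Relb* and *Nfkbiz* had no entry. Each window was searched on both strands for the kappa B consensus, the general NF-kB binding motif. The 4 windows below are shown because *Nfkb2* and *Tnfaip3* were called in the stromal fraction, *Bcl3* had the smallest p of the 10 genes in the immune fraction and *Nfkbia* is the classical feedback inhibitor. Sequences run 5′ to 3′ on the gene's strand, and capitals mark bases inside a match on either strand, with overlapping matches merged. The *Nfkb2* window is chr19:46304487-46304786 (plus strand), that of *Nfkbia* chr12:55492598-55492897 (minus strand), that of *Bcl3* chr7:19822706-19823005 (minus strand) and that of *Tnfaip3* chr10:19015361-19015660 (minus strand).
Nfkb2: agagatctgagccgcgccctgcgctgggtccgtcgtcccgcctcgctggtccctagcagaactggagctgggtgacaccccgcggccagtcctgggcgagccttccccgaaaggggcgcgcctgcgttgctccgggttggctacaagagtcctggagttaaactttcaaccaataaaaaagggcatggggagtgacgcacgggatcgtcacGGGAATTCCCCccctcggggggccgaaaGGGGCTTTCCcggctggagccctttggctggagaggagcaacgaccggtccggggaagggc
Nfkbia: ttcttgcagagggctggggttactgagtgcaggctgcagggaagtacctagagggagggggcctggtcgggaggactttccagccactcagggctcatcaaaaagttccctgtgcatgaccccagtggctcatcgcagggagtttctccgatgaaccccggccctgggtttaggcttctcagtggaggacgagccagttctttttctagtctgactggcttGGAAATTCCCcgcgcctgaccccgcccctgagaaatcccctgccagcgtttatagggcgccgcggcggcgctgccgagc
Bcl3: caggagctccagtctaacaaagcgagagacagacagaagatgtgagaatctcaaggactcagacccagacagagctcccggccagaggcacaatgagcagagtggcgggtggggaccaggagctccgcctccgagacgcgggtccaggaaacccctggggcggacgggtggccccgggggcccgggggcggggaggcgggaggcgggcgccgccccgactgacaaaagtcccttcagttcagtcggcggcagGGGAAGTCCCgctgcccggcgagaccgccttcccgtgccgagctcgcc
Tnfaip3: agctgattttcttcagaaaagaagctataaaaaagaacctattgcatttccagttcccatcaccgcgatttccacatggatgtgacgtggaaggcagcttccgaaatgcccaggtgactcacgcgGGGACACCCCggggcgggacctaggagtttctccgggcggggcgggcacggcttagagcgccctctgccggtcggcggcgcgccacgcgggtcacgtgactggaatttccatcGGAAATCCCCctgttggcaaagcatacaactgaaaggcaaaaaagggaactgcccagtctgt

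At least 1 match was found in 6 of the 7 genes with an entry (85.7%), against 2581 of 27025 genes in the same table (9.55%) and 2779 of 32851 windows (8.46%). *Nfkb2* carried a match to the palindrome GGGAATTCCC at base 212 of the window, counted from its 5′ end, and a second match, GGGGCTTTCC, at base 240. In *Nfkbia* the match lies on the other strand at base 222 and reads GGGAATTTCC there. *Bcl3* had GGGAAGTCCC at base 253, and *Tnfaip3* had matches at bases 126 and 239. The table gives more than 1 start for both *Nfkb2* and *Tnfaip3*, and the windows shown are those of their first: the windows of *Nfkb2* starts 2 and 3 also held matches, and that of *Tnfaip3* start 2 held 0. *Rel* held GGGAAATCCC at base 159 and *Nfkbie* GGGGGATTCC at base 145, while the *Rela* window held no match. A match is a description of these letters and not a measured binding site. Among other pathway genes, 10 of 19 NF-kB target genes with an entry held a match (52.6%) and 1 of 9 genes of the IKK complex and its activating kinases did (11.1%).

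All 10 genes had reads in every library, with 156 to 92714 counts, and all 10 passed the filter on low counts in each comparison. Levels between genes were compared as CPM per kilobase of the principal transcript, and an order between genes depends on the length used. On that scale *Nfkbia*, which encodes IkB alpha, the fast-recycling inhibitor of NF-kB, was first in all 4 groups, at 2946 and 2023 CPM per kb in stromal control and stretched and at 2053 and 3048 CPM per kb in immune control and stretched. Its lowest library was above the highest library of the next gene in each group. That next gene was *Nfkbiz*, a nuclear IkB protein that helps switch on secondary inflammatory genes, with means of 112, 155, 173 and 219 CPM per kb. In stromal control *Nfkbiz*, *Rela*, *Tnfaip3*, *Bcl3* and *Nfkb1* followed each other from 112 down to 59.3 CPM per kb, and each neighbour in that order overlapped the next. *Nfkb2* and *Relb* came after them at 24.8 and 23.4 CPM per kb, then *Nfkbie* at 8.31 and *Rel* at 4.52 CPM per kb, the last pair without overlap. In stromal stretched *Nfkbiz*, *Tnfaip3* and *Rela* (155, 147 and 142 CPM per kb) overlapped in turn, *Bcl3* (103) and *Nfkb1* (70.4) came below them, and *Rel* was again last at 7.49 CPM per kb, within the range of *Nfkbie*. In both immune groups every neighbour below *Nfkbia* overlapped the next. After *Nfkbiz* the leading genes were *Nfkb1* and *Tnfaip3* in immune control (146 and 128 CPM per kb) and *Tnfaip3* and *Nfkb1* in immune stretched (155 and 136 CPM per kb). *Relb* came last in both, at 22.7 and 43.3 CPM per kb. *Nfkb1* has 4117 bases in its principal transcript and 12061 over all its exons, and orders by exon length are not given here.

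**Figure D1:**
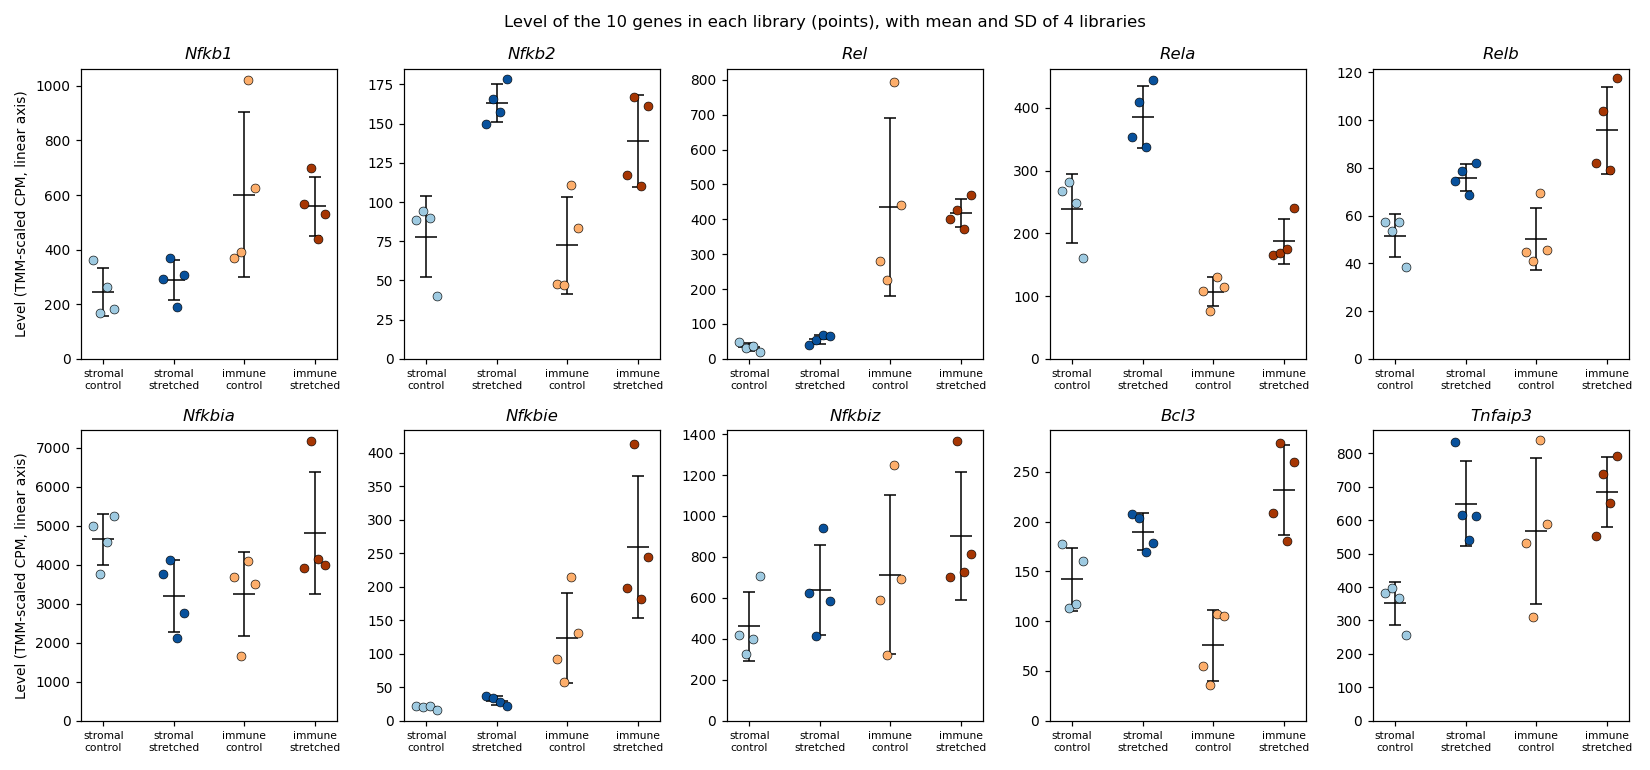
Level of each of the 10 genes (TMM-scaled CPM, linear axis from 0, 1 panel a gene) in the 4 groups, with points for libraries and bars for mean and SD of 4 libraries. *Nfkb2* in the stromal fraction lies between 150.0 and 178 CPM in stretched libraries, all above the controls at 39.85 to 94.3 CPM, and *Rel* and *Nfkbie* are higher in each immune library than in any stromal one.

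Stretched and control libraries of the stromal fraction were compared to ask which of these transcripts differed 6 h after stretching. *Nfkb2* and *Tnfaip3* rose, by 2.10-fold and 1.86-fold, and passed the adjusted threshold of 0.05 in the edgeR quasi-likelihood test. The background over all genes was 2.05% called higher, 329 of 16074, and the *Nfkb2* and *Tnfaip3* adjusted p-values lay close to the threshold. Of the 10 genes, 9 had a positive log2 fold change, all but *Nfkbia*, and the median of the 10 was 0.57 against 0.012 over all genes tested. Over all genes here log2 fold change was related to exon length (Spearman rho 0.39), and *Nfkbia* has the shortest of the 10 (1610 bases). The part of length in these signs was not tested. Under the alternatives *Nfkb1* and *Nfkbiz* fell as low as 0.032 and 0.033. An unadjusted p under 0.05 was reached by 6 of the 10, against 26.8% of all genes. In 4 of them (*Nfkb2*, *Rela*, *Relb* and *Tnfaip3*) each stretched library was above each control, against 7.78% of all genes.

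*Nfkb2* (ENSMUSG00000025225, chr19:46304320-46312385, GRCm38, plus strand) encodes the precursor of the subunit used in the alternative NF-kB pathway. Its level was 88.3, 94.3, 89.6 and 39.85 CPM in stromal controls 1 to 4 and 150.0, 166, 157 and 178 CPM in stromal stretched 5 to 8. Control 4 was low among the controls, and the groups did not overlap. The means were 78.0 ± 25.6 and 163 ± 12.1 CPM (SD, n = 4 each), and the log2 fold change was 1.07 ± 0.25 (SE), with an adjusted p of 0.0466 in edgeR. The gene overlaps *Psd* and a noncoding RNA on the opposite strand, and the strand setting of the counting is not given in the sources used here.

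*Relb* (ENSMUSG00000002983, chr7:19606217-19629438, minus strand) encodes the usual partner of the *Nfkb2* product. It measured 57.2, 53.6, 57.3 and 38.4 CPM in controls 1 to 4 and 74.5, 78.7, 68.7 and 81.9 CPM in stretched 5 to 8. The groups did not overlap, and the edgeR log2 fold change of 0.57 ± 0.17 had an adjusted p of 0.0733. *Rela* (ENSMUSG00000024927, chr19:5637483-5648130, plus strand), the main activating subunit of the canonical pathway, measured 268, 282, 248 and 161 CPM in controls and 354, 409.5, 337 and 444 CPM in stretched libraries. They did not overlap either, and its log2 fold change was 0.70 ± 0.21 with an adjusted p of 0.0735 in edgeR. Neither gene passed the threshold.

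*Rel* (ENSMUSG00000020275, chr11:23736847-23770970, minus strand), the subunit best known from lymphocytes and myeloid cells, averaged 33.8 ± 11.2 CPM in stromal control and 55.9 ± 13.3 CPM in stromal stretched. Its libraries overlapped, and its log2 fold change of 0.74 ± 0.27 had an adjusted p of 0.112 in edgeR. *Nfkb1* (ENSMUSG00000028163, chr3:135584655-135691547, minus strand) encodes the precursor of the DNA-binding partner of *Rela*. It averaged 244 ± 88.2 and 289.7 ± 73.7 CPM, with a log2 fold change of 0.25 ± 0.28 and an adjusted p of 0.601.

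*Tnfaip3* (ENSMUSG00000019850, chr10:19000910-19015657, minus strand) encodes a ubiquitin-editing enzyme that shuts down signalling from tumour necrosis factor and Toll-like receptors. It stood at 382.5, 399, 367 and 257 CPM in controls 1 to 4 and at 833, 615, 539.9 and 611.5 CPM in stretched 5 to 8. Stretched 5 was the highest of its group and control 4 the lowest of its own, and no libraries of the groups overlapped. The log2 fold change was 0.89 ± 0.21 with an adjusted p of 0.0466 in edgeR. *Nfkbia* (ENSMUSG00000021025, chr12:55489410-55492647, minus strand) was the exception in sign, with 5004, 3757, 4587 and 5248 CPM in controls and 3767, 4125, 2109 and 2767 CPM in stretched libraries. Control 2 lay inside the stretched range, and the log2 fold change of -0.54 ± 0.26 had an adjusted p of 0.214.

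The other inhibitors did not pass the threshold. *Nfkbie* (ENSMUSG00000023947, chr17:45555703-45563169, plus strand), which encodes IkB epsilon, averaged 20.2 ± 2.43 CPM in controls and 29.9 ± 6.50 CPM in stretched libraries, and its adjusted p was 0.0971 in edgeR. *Bcl3* (ENSMUSG00000053175, chr7:19808462-19822770, minus strand) encodes a nuclear IkB protein that acts with dimers of the *Nfkb1* and *Nfkb2* products. It averaged 142 ± 31.7 and 189.8 ± 18.7 CPM, with an adjusted p of 0.188, and it overlaps 2 antisense genes. *Nfkbiz* (ENSMUSG00000035356, chr16:55811375-55838899, minus strand) averaged 461 ± 168 and 639 ± 220.0 CPM, with an adjusted p of 0.335.

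Both calls rested on the processing. *Nfkb2* lost its call under 10 of 18 alternatives and *Tnfaip3* under 12 of 18, with log2 fold changes of 0.87 to 1.22 and 0.67 to 1.11 over all of them. Without stromal stretched 7 and 8, the libraries with receptor-gene reads, the adjusted p-values were 0.287 and 0.267. Leaving out single libraries ended the *Nfkb2* call in 6 of 8 cases (adjusted p 0.0680 to 0.138), all but control 4 (0.0375) and stretched 5 (0.0392). It ended the *Tnfaip3* call in 8 of 8 (adjusted p 0.0517 to 0.138). Across genes in this comparison the log2 fold change was related to exon length, with a Spearman rho of 0.39. With offsets that remove a length trend, an alternative added after the data were seen, the log2 fold changes were 0.91 and 0.67 and the adjusted p-values 0.0777 and 0.113. Summed skeletal muscle markers were 407 to 1046 CPM in controls and 719 to 1775 CPM in stretched libraries, with all 6 markers detected, and their part in these results was not tested. In bulk RNA, fewer cells of a type and less RNA per cell cannot be told apart.

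**Figure D2:**
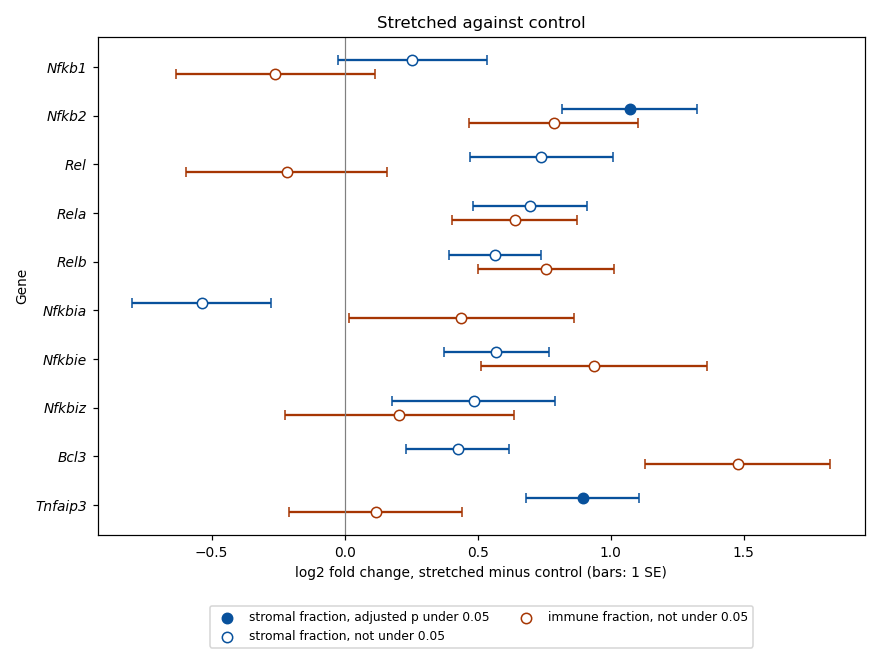
Log2 fold change of stretched over control libraries (x axis) for each gene (y axis) in the stromal and the immune fraction, with bars of 1 SE. Filled circles mark an adjusted p under 0.05, which *Nfkb2* (1.07) and *Tnfaip3* (0.89) reached in the stromal fraction; *Bcl3* in the immune fraction had 1.48.

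In the immune fraction the same question gave no call among the 10 genes. The background was 0% as well, 0 of 14183 genes, and the smallest adjusted p over all genes was 0.134. At an unadjusted p under 0.05 edgeR counted 2467 genes (17.4%), of which 4 were among the 10: *Bcl3*, *Relb*, *Rela* and *Nfkb2*. DESeq2 called 781 genes and limma-voom 888, and *Bcl3* was the only one of the 10 called by either. Groups did not overlap, with each stretched library higher, for *Bcl3*, *Relb* and *Rela*, against 8.55% of all genes. Positive log2 fold changes were found for 8 of the 10, all but *Nfkb1* and *Rel*, and the median was 0.54 against -0.022 over all genes tested.

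*Bcl3* measured 55.1, 36.0, 107 and 105 CPM in immune controls 3 to 6. It measured 209, 279, 181 and 259.5 CPM in immune stretched 1, 2, 7 and 8. Every stretched library lay above every control, with means of 75.8 ± 35.8 and 232 ± 45.3 CPM (SD, n = 4 each). The edgeR log2 fold change of 1.48 ± 0.35 had an unadjusted p of 0.00157 and an adjusted p of 0.143. Under the alternatives its log2 fold change spanned 1.21 to 1.68 and its adjusted p 0.00374 to 0.429. It was called by DESeq2 (adjusted p 0.00374), by limma-voom (adjusted p 0.0333) and in a fit of all 16 libraries together (adjusted p 0.0136).

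*Relb* measured 44.7, 40.9, 69.7 and 45.6 CPM in immune controls and 81.9, 104, 79.3 and 118 CPM in immune stretched libraries. Control 5 was high among the controls and still below each stretched library. The log2 fold change was 0.76 ± 0.25, with an adjusted p of 0.205 in edgeR on the immune libraries alone and 0.0321 in the edgeR fit of all 16 libraries. *Rela* measured 107, 75.7, 131 and 114 CPM in controls and 166, 168, 175 and 241 CPM in stretched libraries, with an adjusted p of 0.228. *Nfkb2* averaged 72.4 ± 30.8 and 139 ± 29.3 CPM, its control 5 reached 111 CPM inside the stretched range, and its adjusted p was 0.251. These subunits did not pass the threshold in the edgeR fit of the immune libraries alone.

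*Nfkbie* averaged 124 ± 67.3 CPM in immune controls and 259 ± 106 CPM in immune stretched libraries, with an adjusted p of 0.288 in edgeR. *Nfkbia* stood at 3687, 1664, 4093 and 3515 CPM in controls and at 3923, 7167, 4155 and 3997 CPM in stretched libraries. The high value is that of stretched 2, the library with the neutrophil markers, and the other 3 stretched libraries lay between 3923 and 4155 CPM. The log2 fold change of 0.44 ± 0.42 dropped to 0.13 when stretched 2 was left out. *Nfkb1*, *Rel*, *Nfkbiz* and *Tnfaip3* had log2 fold changes of -0.26, -0.22, 0.20 and 0.12 with adjusted p-values of 0.738 to 0.874. The sign of each of these 4 turned when a single library was left out, control 5 for *Nfkb1* (0.093) and *Rel* (0.22), control 4 or stretched 2 for *Nfkbiz* (-0.024 and -0.12), and control 4 for *Tnfaip3* (-0.064).

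Summed cell type markers of the immune libraries were also set beside treatment. Summed markers of dendritic cells and macrophages were 5553 to 21381 CPM in immune control and 25487 to 57278 CPM in immune stretched, without overlap, with all 8 markers detected. Neutrophil markers were 439.6 to 9868 CPM in controls and 146 to 48352 CPM in stretched libraries. Fibroblast markers were 1496 to 7038 CPM in immune control (median 2818) and 7916, 1974, 9348 and 10107 CPM in immune stretched 1, 2, 7 and 8, with all 7 detected. In the immune stretch comparison 0 markers of these 3 lists were called by edgeR. More cells of a type and more RNA per cell cannot be told apart here. The part of these 3 lists in the values of *Bcl3*, *Relb* and *Rela* was not tested. Without stretched 2 the *Bcl3* log2 fold change was 1.34 and its adjusted p 0.0902, with 45 genes called in all.

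Whether the effect of stretching differed between fractions was tested as an interaction over all 16 libraries. Of the 10 genes 0 passed, as did 0 of all 18295 (0%), while 4232 genes (23.1%) and 2 of the 10 had an unadjusted p under 0.05. DESeq2 and limma-voom called 1625 and 1453 genes in all, and 0 of the 10. The 2 were *Bcl3*, whose effect was larger in the immune fraction by 1.20 ± 0.43 on the log2 scale (unadjusted p 0.0128, adjusted p 0.130 in edgeR), and *Nfkbia*, with a difference of 1.11 ± 0.50 (unadjusted p 0.0387, adjusted p 0.193). For *Tnfaip3*, called in the stromal fraction alone, the immune effect was smaller by a log2 difference of -0.62 ± 0.41 with an adjusted p of 0.375, so a difference between the fractions was not shown. *Nfkb2* differed by -0.12 ± 0.43 (adjusted p 0.898).

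Immune and stromal libraries were then compared within each treatment, a comparison of the sorted populations and not of stretching. In control skin *Rel*, *Nfkbie* and *Nfkb1* were called higher in immune cells and *Rela* lower, 4 of the 10. Of all genes 26.6% were called higher and 22.8% lower, so calls were common. In stretched skin these 4 genes were called in the same directions, against 23.9% of all genes higher and 25.1% lower. The libraries of these 4 genes did not overlap between fractions under either treatment. The share of all genes without overlap between fractions is not given here, so that count has no background to be read against.

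*Rel* had the largest difference of the 10 in control skin. It measured 47.3, 30.6, 36.6 and 20.6 CPM in stromal control against 282, 227, 794 and 439.9 CPM in immune control, and immune control 5 was the highest. Its log2 difference, immune minus stromal, was 3.79 ± 0.45 in controls (13.8-fold, adjusted p 7.21e-05 in edgeR) and 2.76 ± 0.26 in stretched skin (6.77-fold, adjusted p 2.75e-05), where its libraries lay at 38.3 to 67.7 CPM in the stromal and 373 to 469 CPM in the immune fraction. *Nfkbie* measured 21.5, 20.6, 22.1 and 16.7 CPM in stromal control against 92.7, 57.5, 214 and 131 CPM in immune control. Its log2 difference was 2.71 ± 0.37 in controls (adjusted p 0.000173 in edgeR) and 2.98 ± 0.32 in stretched skin (adjusted p 7.26e-05), with 21.4 to 36.2 CPM in stromal and 182 to 413 CPM in immune libraries. The calls of *Rel* and *Nfkbie* held under each of 19 alternatives in controls and 20 in stretched skin.

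*Rela* went the other way. Its mean was 239.7 ± 54.4 CPM in stromal control and 107 ± 23.2 CPM in immune control, a log2 difference of -1.06 ± 0.26 with an adjusted p of 0.00666 in edgeR. With title numbers as a replicate block that call was lost (log2 difference -1.01, adjusted p 0.268). Only numbers 3 and 4 in control skin, and 7 and 8 in stretched skin, occur in both fractions. With the block the difference rests on those libraries alone. In stretched skin the *Rela* means were 386 ± 49.6 and 188 ± 35.9 CPM, with a log2 difference of -1.17 ± 0.22 and an adjusted p of 0.00206. *Nfkb1* averaged 244 ± 88.2 CPM in stromal control and 602 ± 301 CPM in immune control, with a log2 difference of 1.41 ± 0.39 and an adjusted p of 0.0124. In stretched skin its log2 difference was 0.82 ± 0.26 with an adjusted p of 0.0246 in edgeR. That call was lost under 8 of 20 alternatives. The adjusted p was 0.271 with the detected-genes covariate (log2 difference 0.47), 0.161 without the receptor-read libraries (0.65) and 0.0901 with no filter. It was 0.0535, 0.0564, 0.0592 and 0.0571 without stromal stretched 5, 7 or 8 or immune stretched 1, and 0.0586 with the replicate block. The *Nfkb1* call in controls was lost with length offsets (log2 difference 0.93, adjusted p 0.0887) and with the replicate block (0.94, adjusted p 0.408).

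The other 6 genes were not called in either treatment by edgeR as described, but some alternatives called 5 or 6 of the 10 in controls. *Bcl3* in controls lay lower in every immune library (36.0 to 107 CPM) than in any stromal library (113 to 177 CPM), with a log2 difference of -0.81 ± 0.34 and an adjusted p of 0.0715 in edgeR. In stretched skin the ranges overlapped, at 181 to 279 CPM and 169.6 to 207 CPM, and the log2 difference was 0.16 ± 0.21 with an adjusted p of 0.555. *Tnfaip3* had log2 differences of 0.79 ± 0.32 in controls (adjusted p 0.0602) and -0.056 ± 0.24 in stretched skin (adjusted p 0.861). In controls *Tnfaip3* was called under 8 of 19 alternatives, among them RLE factors (adjusted p 0.0479), upper-quartile factors (0.0342), DESeq2 (0.0168), limma-voom (0.0106) and the omission of immune control 4 (0.0158). That last omission and the omission of receptor-read libraries are the same fit here, counted under both names. *Bcl3* was called there under 5 of 19, which were upper-quartile factors (adjusted p 0.0492), no filter (0.0467), the detected-genes covariate (0.0362), all 16 libraries in 1 fit (0.0197) and the omission of immune control 5 (0.0385). *Nfkb2*, *Relb*, *Nfkbia* and *Nfkbiz* had log2 differences of -0.0045, 0.066, -0.43 and 0.73 in controls, with adjusted p-values from 0.159 to 0.993. In stretched skin these differences were -0.36, 0.20, 0.47 and 0.35, with adjusted p-values from 0.176 to 0.413. Limma-voom called *Nfkbiz* higher in immune controls (log2 difference 0.92, adjusted p 0.0142) and *Nfkb2* lower in immune stretched libraries (-0.51, adjusted p 0.02495).

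**Figure D3:**
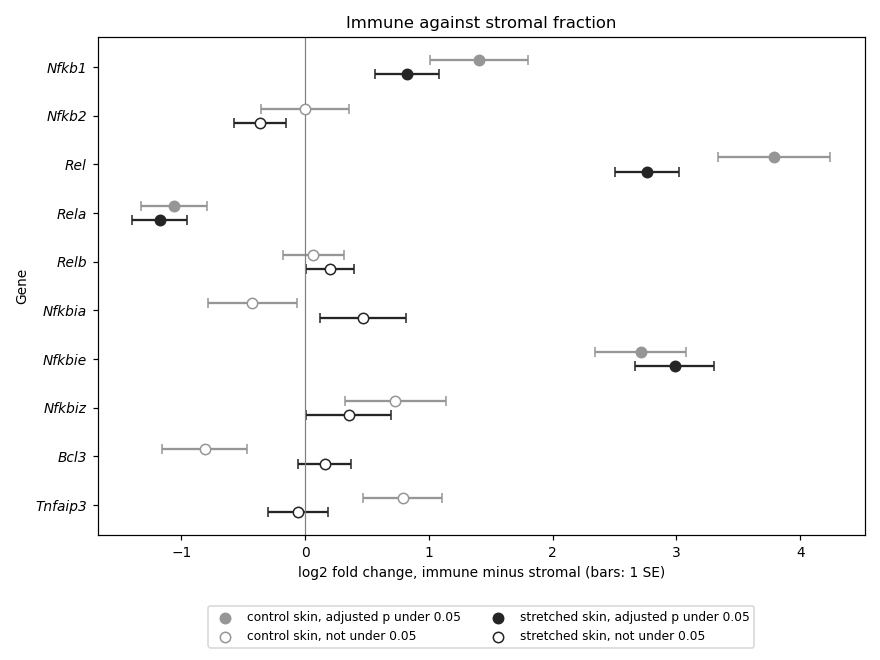
Log2 fold change of immune over stromal libraries (x axis) for each gene (y axis) in control and in stretched skin, with bars of 1 SE and filled circles for an adjusted p under 0.05. *Rel* (3.79 and 2.76) and *Nfkbie* (2.71 and 2.98) lie far to the right, *Rela* (-1.06 and -1.17) to the left, and *Nfkb2* and *Relb* closer to 0.

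Shares of the 5 subunit transcripts, taken per kilobase, describe which dimer partners each fraction had messages for. *Rela* made up 44.2% ± 4.79 (SD, n = 4) of subunit transcripts in stromal control and 46.5% ± 1.61 in stromal stretched, the largest share in both. In the immune groups *Nfkb1* was the largest on this scale, with 49.7% ± 3.65 in control and 38.9% ± 4.79 in stretched libraries. That rank depends on the length used. *Nfkb1* has 4117 bases in its principal transcript and 12061 over all exons, against 7466 in both for *Rel* and 2716 and 3072 for *Rela*. Shares by exon length are not given here. *Rel* held 2.22% ± 0.264 and 2.48% ± 0.736 in the stromal groups and 19.3% ± 2.65 and 16.1% ± 1.05 in the immune groups. Per kilobase there were 0.0510 ± 0.0106 *Rel* transcripts for each *Rela* transcript in stromal control and 1.41 ± 0.558 in immune control. No library of one fraction reached the range of the other in that ratio.

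The *Nfkb2* share stood at 12.2% ± 2.38 in stromal control and 17.04% ± 1.51 in stromal stretched. In the immune fraction it was 7.99% ± 0.642 in control and 12.6% ± 1.07 in stretched libraries. In both fractions its highest control library (14.8% and 8.89%) was below its lowest stretched library (15.8% and 11.4%). The lowest immune control had an *Nfkb1* share of 44.4%, above the 43.7% of the highest immune stretched library. *Relb* held 10.5% to 13.8% in the stromal and stretched immune libraries and 6.72% to 9.98% in immune control. These shares add to a whole, so each depends on the other 4 genes, and they were not tested.

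**Figure D4:**
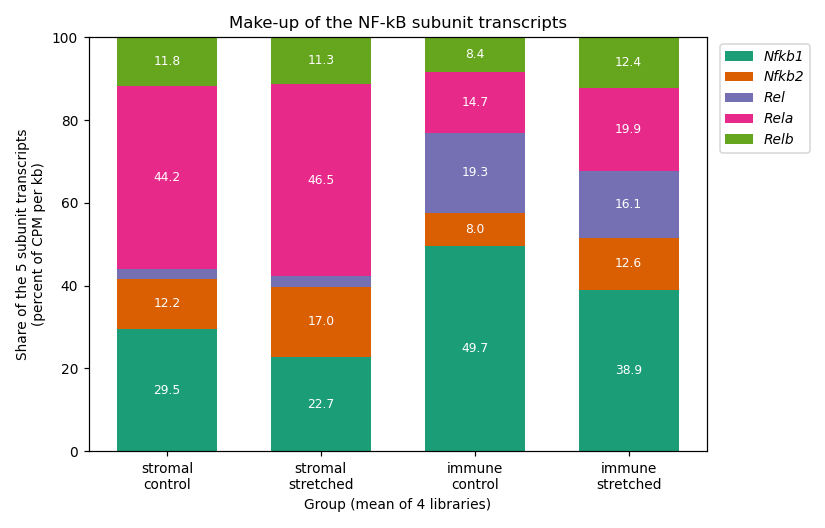
Share of each of the 5 subunits in their summed transcripts (y axis, percent of CPM per kb) in each group (x axis), as means of 4 libraries. *Rela* is the largest band in both stromal groups (44.2% and 46.5%), and *Rel* is a thin band there (2.22% and 2.48%) and a broad one in the immune groups (19.3% and 16.1%).

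Ratios of inhibitor to subunit were read the same way. The *Nfkbia* to *Rela* ratio per kilobase was 35.8 ± 14.3 in stromal control and 14.3 ± 4.11 in stromal stretched, and the lowest control (22.9) was above the highest stretched library (18.3). The highest control reached 56.2. *Nfkbia* was at 1337 and 1754 CPM per kb in stromal stretched 7 and 8, the libraries with receptor-gene reads. It was at 2387 and 2614 CPM per kb in stromal stretched 5 and 6. Its stromal log2 fold change spanned -0.69 to -0.085 under the alternatives. The part of these libraries and of exon length in the stromal *Nfkbia* ratios was not tested. In the immune fraction the *Nfkbia* to *Rela* ratio was 50.9 ± 9.14 and 45.8 ± 19.2, with overlapping ranges. The *Bcl3* to *Nfkbiz* ratio, between 2 nuclear IkB proteins, was 0.246 ± 0.0646 in immune control and 0.595 ± 0.112 in immune stretched libraries, without overlap. In the stromal fraction it was 0.721 ± 0.185 and 0.731 ± 0.288. The *Nfkb2* to *Nfkb1* ratio was 0.446 ± 0.203 and 0.7765 ± 0.217 in stromal control and stretched, with overlap. In immune control and stretched it was 0.161 ± 0.0147 and 0.328 ± 0.0531, without overlap. *Nfkbie* to *Nfkbia* gave 0.00288 ± 0.000633 and 0.00631 ± 0.0017 in the stromal groups, without overlap. It gave 0.0242 ± 0.00731 and 0.0345 ± 0.0050 in the immune groups, with overlap. These ratios were not tested, and how often those of other gene pairs separate was not counted.

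Other genes of the pathway were counted from 5 lists, beside a background in the stromal fraction of 329 genes called higher (2.05%) and 471 called lower of 16074. In the stromal fraction after stretching, 2 of 10 tested receptors upstream of NF-kB rose and 0 fell, with a median log2 fold change of 0.64 against 0.012 over all genes. These were *Tnfrsf1b*, a receptor for tumour necrosis factor (40.8 ± 6.70 to 77.6 ± 5.42 CPM, log2 fold change 0.94 ± 0.17, adjusted p 0.0424 in edgeR), and *Il1r1*, the signalling receptor for interleukin 1 (88.2 ± 10.9 to 153 ± 36.2 CPM, log2 fold change 0.80 ± 0.20, adjusted p 0.0485). Of 26 tested NF-kB target genes 3 rose and 0 fell, with a median of 0.080. *Icam1* and *Vcam1*, adhesion molecules for leukocytes, had log2 fold changes of 1.04 ± 0.23 and 0.73 ± 0.17. *Csf3*, which encodes the granulocyte growth factor, had 1.61 ± 0.36, from 3.25 ± 1.48 to 9.89 ± 3.56 CPM.

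Of 17 other inhibitors and deubiquitinases, *Zc3h12a*, a ribonuclease that degrades inflammatory messages, rose (log2 fold change 0.95 ± 0.23). *Nkiras1*, a small GTPase that binds IkB proteins, fell by 0.69 on the log2 scale, from 30.2 ± 1.18 to 18.6 ± 2.53 CPM. Among 18 adaptors and ubiquitin ligases *Tradd*, the adaptor of the tumour necrosis factor receptor, fell by 0.91 on the log2 scale, from 42.5 ± 9.98 to 22.6 ± 4.25 CPM, and 0 rose. None of 12 genes of the IKK complex and activating kinases was called by edgeR, 9 of them had an unadjusted p under 0.05 (26.8% of all genes), 10 of the 12 had a positive log2 fold change, and the median was 0.44. *Tab2*, which links the kinase *Map3k7* to ubiquitin chains, was negative, at -0.84 ± 0.25 (adjusted p 0.0696). The smallest p among the 12 was that of *Tbk1*, an IKK-related kinase, at 27.97 to 34.1 CPM in controls and 44.0 to 44.9 CPM in stretched libraries (adjusted p 0.0502). With all 16 libraries in 1 fit, without the receptor-read libraries or with length offsets, 0 genes of the whole table were called in this comparison, these pathway genes included.

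In the immune fraction the edgeR test called 0 genes of the 5 lists, and an unadjusted p under 0.05 was found for 6 of 17 other inhibitors, 5 of 20 adaptors, 4 of 28 target genes, 2 of 11 receptors and 1 of 12 genes of the IKK list, against 17.4% of all genes. Medians of the log2 fold change were 0.73 for the other inhibitors, 0.52 for receptors, 0.41 for target genes, 0.34 for adaptors and 0.054 for the IKK list, against -0.022 over all genes. *Nkiras2*, the paralog of *Nkiras1*, was at 3.001 to 8.78 CPM in controls and 17.7 to 23.6 CPM in stretched libraries, and its adjusted p was 0.134. *Myd88*, the adaptor of Toll-like and interleukin 1 receptors, was at 55.4 to 93.5 and 170.3 to 312 CPM, also with an adjusted p of 0.134. In the interaction test 0 genes of the lists passed in edgeR, 7, 4, 1, 2 and 1 in the same order had an unadjusted p under 0.05 (23.1% of all genes), and the smallest adjusted p among them was 0.0605, for *Nkiras2*.

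Between the sorted populations many pathway genes were called, against the shares of all genes given above (26.6% higher and 22.8% lower in controls, 23.9% and 25.1% in stretched skin). In control skin 13 of 28 target genes were higher in immune cells and 4 lower, and in stretched skin 13 of 30 were higher and 6 lower. *Cd83*, an activation marker of dendritic cells, had log2 differences of 6.99 ± 0.60 in controls and 8.16 ± 0.64 in stretched skin. *Traf1*, a signalling adaptor, had 7.76 ± 0.56 and 6.90 ± 0.42, and *Tnip3*, which binds the *Tnfaip3* product, 8.64 ± 0.70 and 8.25 ± 0.999. *Ikbkb*, the catalytic kinase of the canonical IKK complex, had 2.12 ± 0.24 and 1.46 ± 0.18. *Il1r1* was lower in immune cells by a log2 difference of -2.62 ± 0.32 in stretched skin, and *Socs1*, a suppressor of cytokine signalling, by -2.10 ± 0.26 in controls and -0.97 ± 0.24 in stretched skin. The other lists, IKK, receptors, adaptors and inhibitors, had 6, 4, 8 and 4 genes higher and 0, 4, 4 and 5 lower in controls. In stretched skin they had 5, 4, 7 and 6 higher and 3, 4, 3 and 1 lower.

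Genes with the most similar pattern were sought by Pearson r of log2 CPM over the 16 libraries, centred within each fraction, among 7338 genes. These libraries share treatment and depth differences, so r is a description. *Relb* came closest to *Cdc42ep4* (r = 0.946) and *Tnip1* (0.925), *Nfkb2* to *Khnyn* (0.936) and *Map3k11* (0.934), and *Rela* to *Pip5k1c* (0.922) and *Dvl1* (0.922). *Rel* came closest to *Man2a2* (0.929) and *Ttpal* (0.897) and *Nfkb1* to *Dot1l* (0.935) and *Med13* (0.924). Of the inhibitors, *Nfkbia* came closest to *Rnf113a2* (0.967) and *Syf2* (0.962), *Nfkbie* to *Arih2* (0.966) and *Otud5* (0.956), and *Nfkbiz* to *Ythdf3* (0.937) and *Stim2* (0.914). *Bcl3* came closest to *Pnpla2* (0.953) and *Vps26a* (0.952), and *Tnfaip3* to *Nploc4* (0.945) and *Casc3* (0.903). Between the 10 genes themselves the highest r joined *Rela* with *Relb* (0.937), *Rela* with *Nfkb2* (0.931) and *Nfkb2* with *Relb* (0.928), and the lowest was that of *Rel* and *Nfkbia* (-0.028).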

How the data were processed

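Bulk RNA was measured in 16 libraries. Nextera XT libraries were built from SMART-Seq mRNA LP cDNA, per the labels' protocols. The submitters' processing notes name FastQC 0.11.9, STAR (version not given) and the build mm10. The authors deposited raw counts per Ensembl gene, without normalization. The counting tool, strand setting, annotation and handling of multiply mapped reads were not given in the sources used here. Without molecular identifiers, reads are not independent molecules. Within groups, the chi-square between libraries, divided by its degrees of freedom, was 25.1 to 247, and none was a copy of another.

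Symbols and coordinates came from GENCODE M21 (GRCm38), which matched 55394 of 55487 IDs. Each comparison used its own groups, and the interaction all 16 libraries, in edgeR 4.0.16 under R 4.3.3: filterByExpr (minimum count 10, total 15), TMM scaling and the quasi-likelihood F test, checked on simulated data. Benjamini-Hochberg adjustment ran over all genes tested, and genes with an adjusted p under 0.05 were called. Standard errors were derived from F. CPM values were scaled with TMM factors over the 16 libraries.

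All 10 listed genes are named. Of each pathway list, up to 4 called genes with the smallest p could be named, or 2 as values where none was called, and for each of the 10 genes the 2 most similar in log2 CPM (prior count 2), predicted genes left out, among genes tested in both stretch comparisons with a mean of at least 10 CPM in each fraction. The genes and lists were chosen with earlier results of these data known. Alternatives were other scale factors, DESeq2 1.42.0, limma-voom (limma 3.58.1), other filters, a covariate, omitted libraries, a replicate block and, added later, length offsets (natural splines with 4 degrees of freedom).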

Additional observations from a re-analysis of the deposited data

Results flagged for a closer look

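In each of the 40 sets formed by a gene and a group of 4 libraries, the gap between the highest or lowest library and its nearest neighbour was compared with the group's range, and 4 sets exceeded the 95% critical value of Dixon's test. Chance gives about 1 such set in 20. *Nfkb2* in stromal control 4 was low, at 39.85 CPM against 88.3 to 94.3 CPM in the other 3 controls, and without that library the stromal log2 fold change was 0.87 (adjusted p 0.0375 in edgeR). *Rela* in immune stretched 8 was high, at 241 CPM against 166 to 175 CPM. *Relb* in immune control 5 was high, at 69.7 CPM against 40.9 to 45.6 CPM. *Nfkbia* in immune stretched 2, the library with many neutrophil transcripts, was high at 7167 CPM against 3923 to 4155 CPM.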

How the results depend on the processing

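With 2 of the 10 genes called in the stromal fraction, the alternatives gave 4 (DESeq2), 6 (limma-voom) and 0 (detected genes as a covariate, without the receptor-read libraries, all 16 libraries in 1 fit, length offsets), and 0 to 1 with 1 library left out. All genes called there were 800, against 2312 (DESeq2), 3599 (limma-voom), 2115 (no filter), 1378 (strict filter), 1 (covariate), 0 in the other 3, and 0 to 1589 with 1 library left out. In the immune fraction 0 of the 10 became 1 (DESeq2), 1 (limma-voom) and 2 (all 16 libraries), and 0 genes became 781, 888, 667 and 45 (without immune stretched 2). In the interaction 0 of the 10 were called in every alternative, while 0 genes became 25 (upper quartile), 1625 (DESeq2), 1453 (limma-voom), 3924 (no filter), 120 (strict filter), 114 (without immune stretched 2), and 0 to 1495 with 1 library left out. Its median over all genes was 0.028, and -0.19 with RLE and -0.24 with upper-quartile factors. In control skin 4 of the 10 became 3 to 6 under the alternatives other than the replicate block, and in stretched skin 3 to 5. In stretched skin 8380 genes became 4860 (covariate) and 5402 (without receptor-read libraries). Title numbers were tried as a replicate block: 4 of the 10 in control skin became 2, without *Rela* (-1.01, adjusted p 0.268) and *Nfkb1* (0.94, 0.408), and 7484 genes became 3642, in stretched skin 4 became 3, without *Nfkb1* (0.83, 0.0586), and in the interaction 0 of the 10 stayed 0 with 2 genes called. Deviations from the group means of same-numbered libraries had an r of -0.121 to 0.162 over 8 numbers. Since these libraries hold different sorted cells, a low r cannot show whether they came from the same animal. In control skin only numbers 3 and 4 occur in both fractions, and in stretched skin only 7 and 8. With the block the differences between fractions within a treatment rest on those libraries alone. No number occurs in both treatments of a fraction, so the stretch comparisons had no block. The causes of these shifts were not tested.

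Signs turned in 62 of 1030 single-gene values, 0 of them in the stromal stretch comparison; none was called. Immune stretch: *Nfkbiz* -0.0066 (limma-voom), -0.024 (without receptor-read libraries) and -0.12 (without the neutrophil-rich library), *Tnfaip3* -0.064 (without receptor-read libraries) and *Nfkb1* 0.011 (length offsets). Interaction: *Rela* -0.090 (RLE, DESeq2), -0.13 (upper quartile), -0.017 (strict filter), -0.018 (covariate), -0.031 (without receptor-read libraries), -0.032 (without the neutrophil-rich library) and -0.12 (length offsets). *Nfkbie* gave -0.033 (covariate) and -0.011 (without the neutrophil-rich library), *Nfkb1* 0.029 (length offsets) and, with the replicate block, 0.20, beside 0.29 for *Nfkbiz*. Control skin: *Nfkb2* 0.038 (RLE, DESeq2), 0.013 (upper quartile), 0.17 (strict filter), 0.015 (covariate), 0.061 (without receptor-read libraries) and 0.093 (length offsets). *Relb* gave -0.073 (limma-voom), -0.14 (no filter) and -0.041 (all 16 libraries), and *Nfkbiz* -0.14 (replicate block). Stretched skin: *Tnfaip3* 0.0094 (strict filter), 0.075 (all 16 libraries), 0.16 (replicate block) and 0.096 (length offsets), *Nfkbia* -0.093 (covariate) and -0.054 (length offsets), *Bcl3* -0.0016 (covariate) and -0.025 (length offsets), and *Nfkbiz* -0.11 (replicate block). With 1 library left out the ranges were: immune *Nfkb1* -0.43 to 0.093, *Rel* -0.41 to 0.22, *Nfkbiz* -0.12 to 0.60 and *Tnfaip3* -0.064 to 0.35. In the interaction they were *Nfkb1* -0.79 to 0.016, *Nfkb2* -0.49 to 0.16, *Rela* -0.20 to 0.23, *Nfkbie* -0.011 to 0.89 and *Nfkbiz* -0.63 to 0.25. In control skin they were *Nfkb2* -0.33 to 0.096 and *Relb* -0.19 to 0.11, and in stretched skin *Tnfaip3* -0.14 to 0.079. The immune controls are the shallowest libraries, and adjusted p-values near 0.05 in the stromal comparison moved across the threshold with most single libraries.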
